A study of Homo sapiens with 24 samples.

Results

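The first hour of transcription block was examined in U2OS cells, a human osteosarcoma line, by setting the 4 libraries taken after 1 h of actinomycin D against the 4 libraries taken at 0 h, which makes 8 of the 24 libraries of the series. All cells had been transfected with siRNA, and cytoplasmic RNA was sequenced. The 4 pairs come from 4 siRNA series, labelled as control knockdown, knockdown of the long PAN3 isoform, of the short isoform and of both isoforms; PAN3 is a subunit of the PAN2-PAN3 deadenylase, which trims poly(A) tails. Each series has a single library per time, so the series served as 4 replicates of the same hour, and a difference between their siRNAs is part of the spread. The labels do not say whether the libraries came from separate cultures, so p-values measure the spread between these libraries, which may be in part technical.

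Actinomycin D binds DNA and stops RNA polymerases, so that after its addition each cytoplasmic mRNA is lost at the rate of its own decay while nuclear transcripts may still be exported. The mRNAs of immediate-early genes, of signalling inhibitors and of many transcription factors are known for very short lives, and many carry AU-rich elements in the 3′ UTR, where proteins such as tristetraprolin bind and recruit deadenylases. The mRNAs of ribosomal proteins, glycolytic enzymes and the respiratory chain are known as stable. Actinomycin D removes input for every gene, so a level that stays high relative to the others after 1 h is a relative statement: no spike-in is named, and less RNA per cell cannot be told apart from fewer cells.

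The 8 libraries were alike in composition. Their summed FPKM lay between 327863.1 and 373526.6, the highest being the control series at 1 h, and 9310 to 9704 genes reached 1 FPKM. FPKM give reads per transcript length and library total, and the depth is unknown. PAN3 itself was low at both times, with 1.16, 0.45, 1.76 and 1.66 FPKM at 0 h and 0.64, 0.38, 1.76 and 0.71 FPKM at 1 h, given here and below in the order control, long, short and both. PAN3 was not lower at 0 h in the short-labelled or both-labelled libraries than in the control, so the series are named by their labels throughout. Its mean difference between the times was -0.39 FPKM, with an exact two-sided sign-flip p of 0.25 over 4 pairs, where the smallest p such a test can give is 0.125. PAN2, the catalytic partner, was listed at 0 in 3 of the 4 libraries at 0 h and was not tested. Of the 12 mesenchymal and bone-lineage markers, VIM, S100A4 and COL1A1 reached a mean of 1 FPKM, while CDH2 and TWIST1 were at 0.00 and COL1A2, CDH11 and ALPL at 0.01 FPKM. None of the 8 epithelial and none of the 6 endothelial markers reached 1 FPKM. HBA1, CD68, SNAP25 and TUBB3, from the blood and neuronal lists, did.

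Of 8906 genes tested, 152 were lower at 1 h, which is 1.71% of those tested, and 42 were higher, which is 0.472%. A gene was called where limma gave it a p, adjusted by Benjamini-Hochberg over all tested genes, under 0.05; the model was fitted to log2(FPKM + 0.1) with the library median subtracted and the siRNA series as a block. The losses were large and the rises small: the median change was -1.22 on the log2 scale among the lower genes and 0.53 among the higher ones, against 0.10 over all tested genes. A fall of at least 2-fold was seen in 101 of the lower genes and of at least 4-fold in 23, while 7 of the higher genes rose by 2-fold or more. All 152 lower genes fell in each of the 4 series, where 13.5% of tested genes did so, and all 42 higher genes rose in each, where 30% of tested genes did so. In 120 of the 152 lower genes every FPKM at 1 h lay under every FPKM at 0 h, which held for 4.53% of tested genes, and in 10 of the 42 higher genes every value at 1 h lay above, which held for 1.08%. The genes were called on these same 8 libraries, so all these counts are a description. A call on 4 pairs largely fixes that the 4 series share a direction. The calls depended on the number of pairs: without the short-labelled or the both-labelled pair no gene passed, with 2053 and 1980 genes at an unadjusted p under 0.05, while 18 lower genes passed without the control pair and 17 without the long-labelled pair. Without subtraction of the library medians the median change of all genes was 0.00 and the calls were 210 lower and 20 higher.

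**Figure D1:**
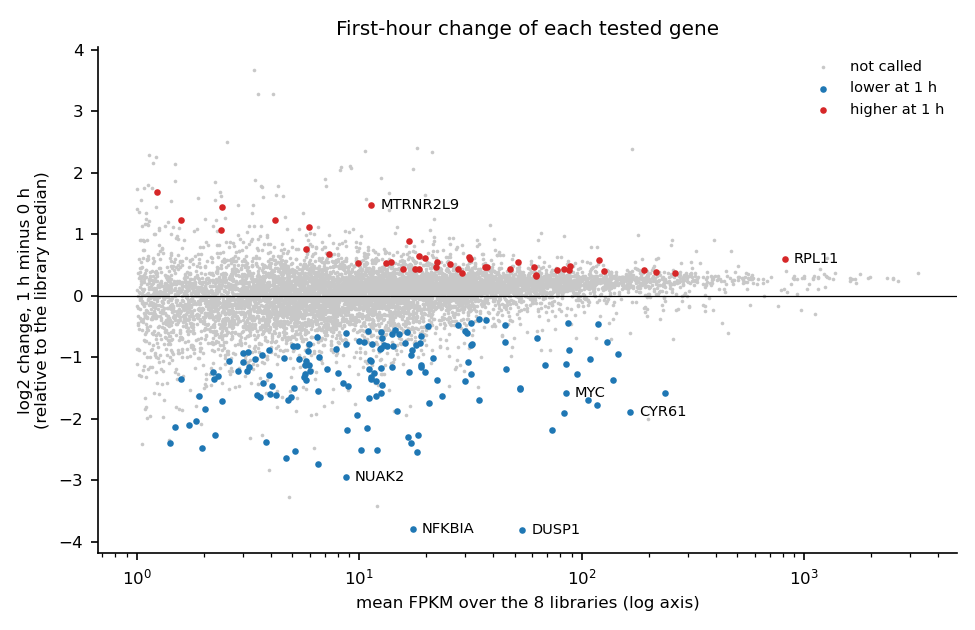
Change of each tested gene over the first hour (log2, relative to the library median) against its mean FPKM over the 8 libraries on a log axis; each point is a gene, blue where lower and red where higher at 1 h at an adjusted p under 0.05. The blue points reach far below the cloud at all levels of expression, whereas the red points lie close to it; genes listed at 0 in every library of either time are not drawn.

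Among the calls averaging 5 FPKM or more and listed above 0 at both times, the largest fall was that of DUSP1, a dual-specificity phosphatase that switches off MAP kinases. DUSP1 stood at 80.03, 132.39, 85.3 and 105.76 FPKM at 0 h and at 3.78, 13.02, 6.26 and 5.66 FPKM at 1 h. The groups did not overlap, and between 4.72% and 9.84% of the 0 h value was left. The change was -3.81 ± 0.18 on the log2 scale (SE, n = 4 pairs; limma, adjusted p = 0.0055). NFKBIA, which encodes the NF-kB inhibitor IκBα, differed more between the series before the block, at 20.03, 13.49, 60.01 and 38.07 FPKM, yet all 4 libraries at 1 h held between 1.28 and 2.71 FPKM. Its change was -3.79 ± 0.21 (adjusted p = 0.0062 in limma). NUAK2, a kinase of the AMPK family, went from 18.79, 14.08, 15.44 and 13.95 FPKM to 2.26, 2.35, 1.48 and 1.29 FPKM, a change of -2.94 ± 0.17 with groups that did not overlap.

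These mRNAs carry the heptamer UAUUUAU, the core of many AU-rich elements, in the 3′ UTR. A 27-base window around the first match, in DNA letters and on the transcript strand, is shown for 6 of the genes that fell. The capitals mark the match. Of the 14 genes matched among the 15 largest falls 7 hold it, of which SPRY2 and DLX2 are not shown. ADM, DUSP6, GADD45B, IER5L, JUNB, RNF113A and TRIB1 do not hold it. CYR61 is shown though it is not among the 15. The windows come from GENCODE 29 transcripts (GRCh38), while the deposited values were made on hg19. They lie at chr5:172768644-172768670 (minus strand) for DUSP1, chr14:35401700-35401726 (minus) for NFKBIA, chr1:205302896-205302922 (minus) for NUAK2, chr17:78356833-78356859 (minus) for SOCS3, chr3:156705512-156705538 (plus) for TIPARP and chr1:85583560-85583586 (plus) for CYR61.
DUSP1: ggctggtcctTATTTATttaacttcac
NFKBIA: ccacattttaTATTTATtgtgcttcga
NUAK2: tttttattttTATTTATttatttattt
SOCS3: actttgcacaTATTTATatttatattc
TIPARP: gtgaggattcTATTTATttatttacgt
CYR61: ctgaatgtttTATTTATcaaaatgtag
DUSP1 holds 3 such matches, overlapping ones included, NUAK2 and TIPARP hold 4 each, and NFKBIA, SOCS3 and CYR61 hold 2 each.

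SOCS3, the inhibitor of JAK-STAT signalling, fell by 2.54 on the log2 scale, from between 28.95 and 34.55 FPKM to between 3.91 and 6.8 FPKM. Its levels at 0 h were alike in the 4 series. TRIB1, a pseudokinase that directs proteins to degradation, changed by -2.73 ± 0.11, and DUSP6, the phosphatase of ERK, by -2.52 ± 0.21. ADM, the precursor of the vasodilator adrenomedullin, fell by 2.51, from 12.68 to 26.77 FPKM across the series to 1.9 to 3.72 FPKM. TIPARP, a mono-ADP-ribosyltransferase induced by the aryl hydrocarbon receptor, began at 60.41 FPKM in the control series and at 11.22 FPKM in the both-labelled one, and yet lost a like share in each, with 16.6% to 21.4% left. Its change was -2.29 ± 0.09, with the smallest SE of the 15 largest falls. GADD45B, a stress sensor, changed by -2.39, the noncoding LOC284454 by -2.50, IER5L by -2.26, the AP-1 subunit JUNB by -2.18, the receptor tyrosine kinase inhibitor SPRY2 by -2.18 and the homeobox factor DLX2 by -2.15. JUNB held 10.7% of its 0 h value in the control series and up to 29.4% elsewhere, so the size of its fall varied more between the series than that of TIPARP. RNF113A, a zinc-finger protein of the spliceosome, was listed at 12.5, 14.61, 14.1 and 11.29 FPKM at 0 h and at 0 in all 20 later libraries, from 0.5 h on; a value of 0 in this table can be a failed estimate, so no fold is given.

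**Figure D2:**
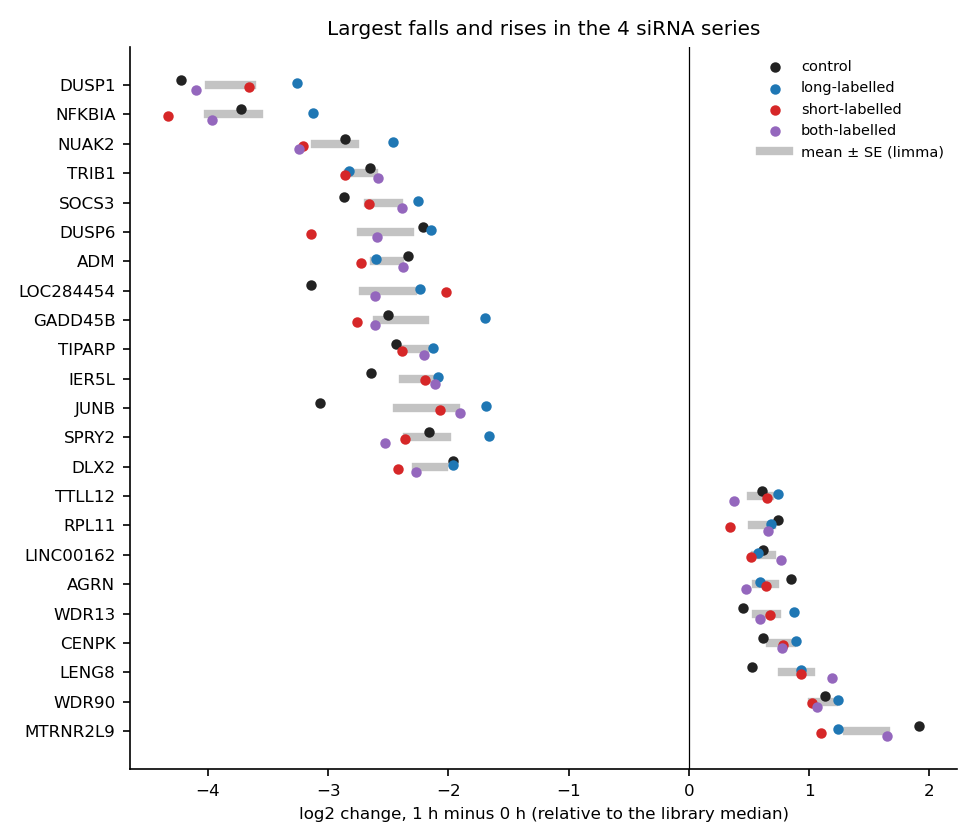
Change from 0 h to 1 h of the genes with the largest falls and rises among calls averaging 5 FPKM or more (log2, relative to the library median), one dot per siRNA series and a grey bar for the mean ± SE of limma. Every dot of the falling genes lies to the left of 0 and every dot of the rising genes to the right; RNF113A is not drawn because it is listed at 0 after 0 h.

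The growth factor feedback genes, which encode phosphatases, Sprouty proteins and other inhibitors switched on by the signals they restrain, had the lowest median of the lists. Of 27 tested, 15 fell, none rose, and the median change was -1.44. IER2 fell by 1.70, from 111.14 to 222.84 FPKM across the series to 24.24 to 70.95 FPKM, and RHOB, a small GTPase, fell by 1.37, from 340.03 to 129.69 FPKM in the control series. Of 39 immediate-early transcription factors, 15 fell and none rose, with a median change of -1.09. JUN went from 30.35, 27.49, 39.11 and 32.1 FPKM to 8.54, 9.54, 9.26 and 8.14 FPKM, a change of -1.74 ± 0.11 (limma, adjusted p = 0.0085), and its groups did not overlap. FOS, its partner in AP-1, started lower, between 4.25 and 6.93 FPKM, and fell by 1.42. HES1, the repressor downstream of Notch, fell by 1.94, FOSL1 by 1.63, the E-box repressor BHLHE40 by 1.51 and the CBP partner CITED2 by 1.50. EGR1 had a change of -1.64 ± 0.35 and did not pass (adjusted p = 0.080), its share left ranging from 10.9% to 53% between the series. JUN, FOS, IER2 and EGR1 are named here for their place in the textbook response and were picked after their values had been seen.

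MYC, the E-box transcription factor, went from 128.36, 180.12, 84.43 and 115.65 FPKM to 44.21, 74.83, 22.63 and 27.89 FPKM. All values at 1 h lay under all values at 0 h, and the change was -1.59 ± 0.15 (limma, adjusted p = 0.024). No other gene of the 9 tested in the MYC and MAX network was called; MXD1 had a change of -0.47 and MXD4 of 0.25. Among 11 NF-kB feedback genes NFKBIA alone was called, and the median change of that list was 0.03, a sign that turned without median subtraction (-0.07). With 1.71% of all tested genes lower, lists as short as these 2 would hold few calls. TNFAIP3, the deubiquitinase A20, had a change of -1.94 but with an SE of 0.73, because the both-labelled series went from 35.81 to 1.28 FPKM and the control from 9.04 to 6.15 FPKM.

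The regulators of mRNA decay themselves included short-lived members. Of the 7 tested genes of the BTG, TOB and tristetraprolin families, which recruit the CCR4-NOT deadenylase to transcripts, 4 fell, and the median change was -1.24. ZFP36, which encodes tristetraprolin, fell by 1.60, from 3.79, 4.01, 8.59 and 8.28 FPKM to 1.13, 1.74, 2.46 and 1.69 FPKM, and the paralogs ZFP36L2 and ZFP36L1 fell by 1.25 and 1.24. BTG2 fell by 1.39. ZC3H12A, the endonuclease Regnase-1, fell by 1.61 from a level of 3.52 to 6.13 FPKM. Neither ZC3H12A nor ZFP36L2 passed in the fit of all 24 libraries. None of the 45 tested core decay factors, among them the subunits of the exosome, the decapping complex and the deadenylases, was called, and their median change was 0.05, or -0.05 without median subtraction, against 0.10 and 0.00 over all genes; with 1.71% of all tested genes lower, a count of 0 in 45 is near the background. UPF3B, LSM3 and EXOSC5 had changes of 0.33, 0.27 and 0.31.

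Of 20 secreted early-response genes 2 fell, with a list median of -0.43. CYR61, a matricellular protein and target of YAP, went from 469.54, 200.01, 257.98 and 115.2 FPKM to 133.81, 45.18, 75.26 and 24.6 FPKM. The groups overlapped, since the control series at 1 h stood above the both-labelled series at 0 h, but each series lost a like share and the change was -1.89 ± 0.10 (limma, adjusted p = 0.0062). EDN1, which encodes endothelin-1, fell by 1.71. CTGF, the relative of CYR61, had a change of -0.88 that just missed the threshold (adjusted p = 0.051), and VEGFA one of -0.37 (adjusted p = 0.051). Of 12 genes of TGF-β and BMP feedback 2 fell, ID1 by 1.27 and TGIF1 by 1.12; SMAD7 had a change of -1.48 ± 0.31 and was not called.

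Of 142 tested genes named as zinc-finger (ZNF) genes, mostly KRAB repressors and other DNA-binding proteins, 12 fell and none rose, and the median was -0.40. ZNF574 fell by 2.38, from between 5.81 and 7.11 FPKM to between 0.81 and 2.01 FPKM, and its groups did not overlap. ZNF57, ZNF436 and ZNF503 fell by 2.40, 1.62 and 1.28 from levels under 7 FPKM. Of the genes of the ATF4 stress response, DDIT4, an inhibitor of mTORC1, fell by 1.90, from 150.22, 178, 90.97 and 111.98 FPKM to 32.04, 51.5, 21.83 and 29.57 FPKM, and with PPP1R15A (-1.17) and GADD45B it made up the 3 called of 18 tested. Of 27 p53 targets 3 fell: PLK2 (-1.78), BTG2 and AEN (-0.74). CDKN1A, the p53-induced CDK inhibitor, had a change of -0.17 and was not called, with 194.72, 121.95, 529.71 and 477.66 FPKM at 0 h and 161.81, 98.31, 463.15 and 390.49 FPKM at 1 h.

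Among genes of the cell cycle, CDKN1B, which encodes p27, was the single call in 17 G1 regulators and fell by 0.57. None of 34 genes of G2 and M phase was called, and their median was 0.05, or -0.05 without median subtraction. In the SR splicing group the kinase CLK1 fell by 1.67, from 17.66, 10.51, 19.92 and 20.5 FPKM to 4.6, 3.79, 5.79 and 5.29 FPKM, while the other 13 members were not called. None of 11 BCL2 family genes passed; MCL1, whose mRNA is known as short-lived, had a change of -0.60 with 45.6% to 74.1% left. Of 37 nucleolar ribosome biogenesis genes WDR43 and RRS1 fell, by 0.39 and 0.38, and DNAJB1, a co-chaperone, fell by 0.77 as the single call of 15 heat shock genes. Of 9 circadian clock genes BHLHE40 and NR1D1 fell, the latter by 0.93. NR1D1 did not pass under quantile normalisation, and neither NR1D1 nor RRS1 passed in the fit of all 24 libraries. None of the 23 genes of cholesterol and fatty acid synthesis was called. Over all tested genes 1.71% were lower and 0.472% higher. The lists here without a call are thus near the background, and single calls in lists of about 15 genes are not far from it.

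**Figure D3:**
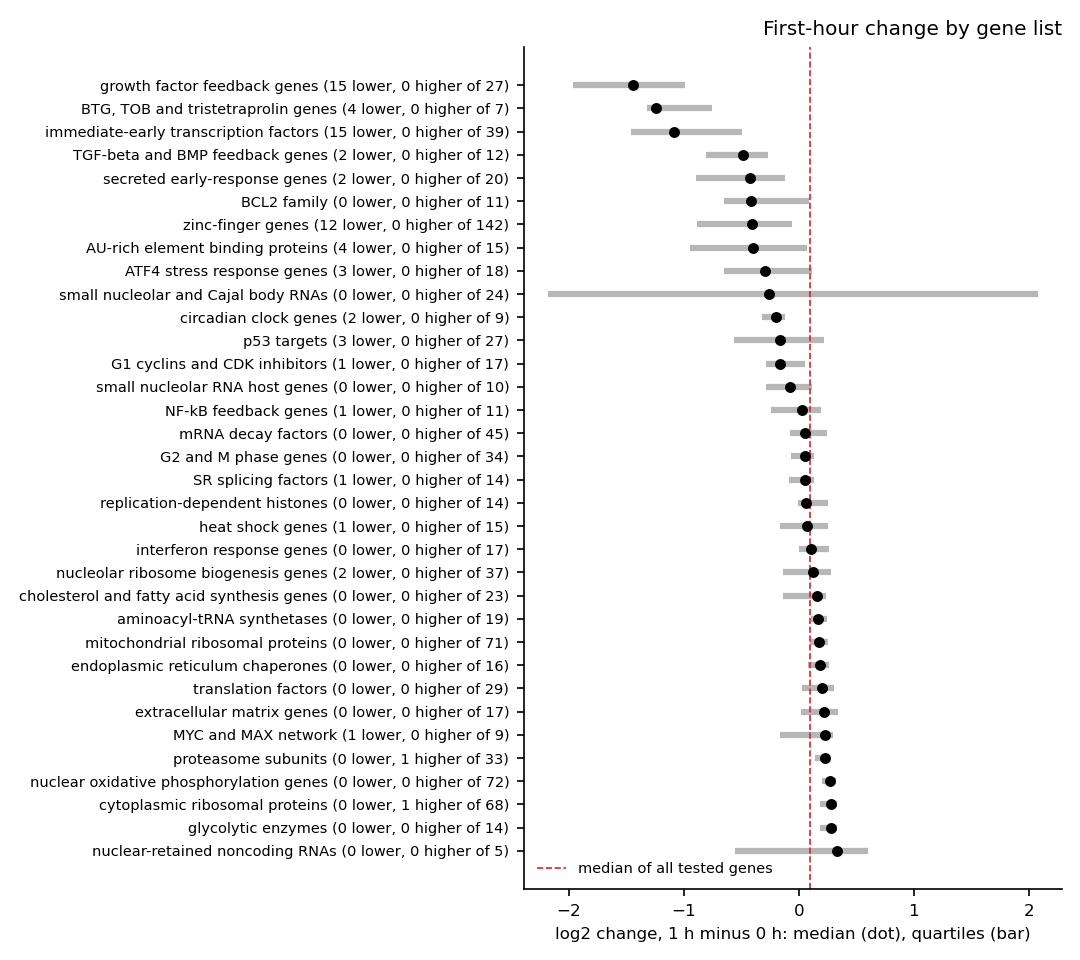
Median (dot) and quartiles (bar) of the log2 change from 0 h to 1 h for each gene list, with the numbers called lower and higher of those tested; the dashed line is the median of all tested genes. The lists of growth factor feedback, of BTG, TOB and tristetraprolin genes and of immediate-early transcription factors lie below -1, and the lists of ribosomal proteins, oxidative phosphorylation and glycolysis lie to the right of the line.

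Lists of mRNAs known as stable had medians above that of all genes with library medians subtracted, though almost none of their genes passed the test. Of 68 cytoplasmic ribosomal protein genes 1 was called, RPL11, and the list median was 0.28. None of 72 nuclear genes of oxidative phosphorylation was called, with a median of 0.27, and 52 of them were higher in all 4 series, where 30% of all tested genes were. With 1.71% of all tested genes lower and 0.472% higher, none or 1 called in such a list is near the background. Medians were 0.28 for 14 glycolytic enzymes, 0.23 for 33 proteasome subunits and 0.17 for 71 mitochondrial ribosomal proteins. LDHB, a subunit of lactate dehydrogenase, stood at 832.06, 926.33, 762.13 and 787.28 FPKM at 0 h and at 977.23, 1073.56, 874.46 and 940 FPKM at 1 h. In FPKM, without median subtraction, this is 115% to 119% of the start in each series. Relative to the library median its log2 change was 0.32 (adjusted p = 0.057 in limma). These values depend on the scaling: under quantile normalisation the medians were 0.03 for ribosomal proteins, 0.05 for mitochondrial ribosomal proteins and proteasome subunits and 0.10 for oxidative phosphorylation and glycolytic enzymes, against 0.05 over all genes, so that ribosomal proteins lay below all genes and the proteasome and mitochondrial ribosomal lists level with them. They also differed between the series. The control series had a median change of 0.51 in ribosomal proteins and 0.47 in oxidative phosphorylation, while the other 3 series lay between 0.19 and 0.21 for the first list and between 0.18 and 0.21 for the second. The control series at 1 h also has the highest summed FPKM; the part of that total in this difference was not tested.

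The genes that rose were a mixed group. MTRNR2L9 went from 2.69, 11.67, 6.4 and 5.29 FPKM to 9.46, 26.28, 13 and 15.66 FPKM, a change of 1.47 ± 0.16 (limma, adjusted p = 0.034). It is a nuclear copy of mitochondrial ribosomal RNA, so reads of the mitochondrial transcript may be counted in it; MTRNR2L2, another such copy, picked after its values had been seen, rose by 1.69 from 0.17 to 1.15 FPKM across the series at 0 h; with a pseudocount of 1 FPKM its change was 0.92 and was not called. WDR90, a protein of centrioles, rose by 1.12, from 2.69, 6.1, 3.63 and 3 FPKM to 5.46, 13.77, 7.04 and 5.97 FPKM. A 0, which can be a failed estimate, is listed for WDR90 at 2 h, and its rise did not pass in the fit of all 24 libraries. LENG8, a protein linked to mRNA export, rose by 0.90, and the kinetochore gene CENPK by 0.77. WDR13 rose by 0.65, the proteoglycan AGRN by 0.64, LINC00162 by 0.62, RPL11 by 0.61 and TTLL12 by 0.59. Without subtraction of the library medians LENG8, CENPK, WDR13, RPL11 and TTLL12 did not pass, and MTRNR2L9, WDR90, AGRN and LINC00162 did. RPL11 did not climb steadily: the long-labelled series went from 551.28 to 415.06 and then to 838.87 FPKM at 0, 0.5 and 1 h, and the both-labelled one from 610.82 to 241.13 and then to 898.32 FPKM. The proteasome subunit PSMA3 rose by 0.44, from 63.16 to 84 FPKM across the series to 85.03 to 102.76 FPKM, and its groups did not overlap, but it too did not pass without median subtraction or under quantile normalisation.

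The libraries at 0.5 h show how much of the fall was already there. They share the 0 h libraries with the comparison at 1 h, so the values are given side by side, as a description. For the 152 lower genes the change at 0.5 h was in the median 56.1% of that at 1 h on the log2 scale, with quartiles of 46.9% and 63.6%. DUSP1 had 87.9% of its change by then, at 6.22, 16.98, 9.42 and 7.91 FPKM, and SOCS3 79.5%. NFKBIA was at 57.7% and MYC at 60.4%. At the other end were C15orf39 with 4.4%, SCAF8 with 21.5% and WDR43 with 24.8%, the first and the second of them named after their values had been seen. WDR43, a factor of pre-ribosome assembly, stood at 43.01, 50.85, 37.34 and 41.47 FPKM at 0 h, at 39.79, 42.79, 35.63 and 40.05 FPKM at 0.5 h and at 29.13, 36.7, 25.89 and 31.38 FPKM at 1 h. In all 4 series its level was lower at 0.5 h than at 0 h and lower again at 1 h. Among the 42 higher genes the median was 62.9%.

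**Figure D4:**
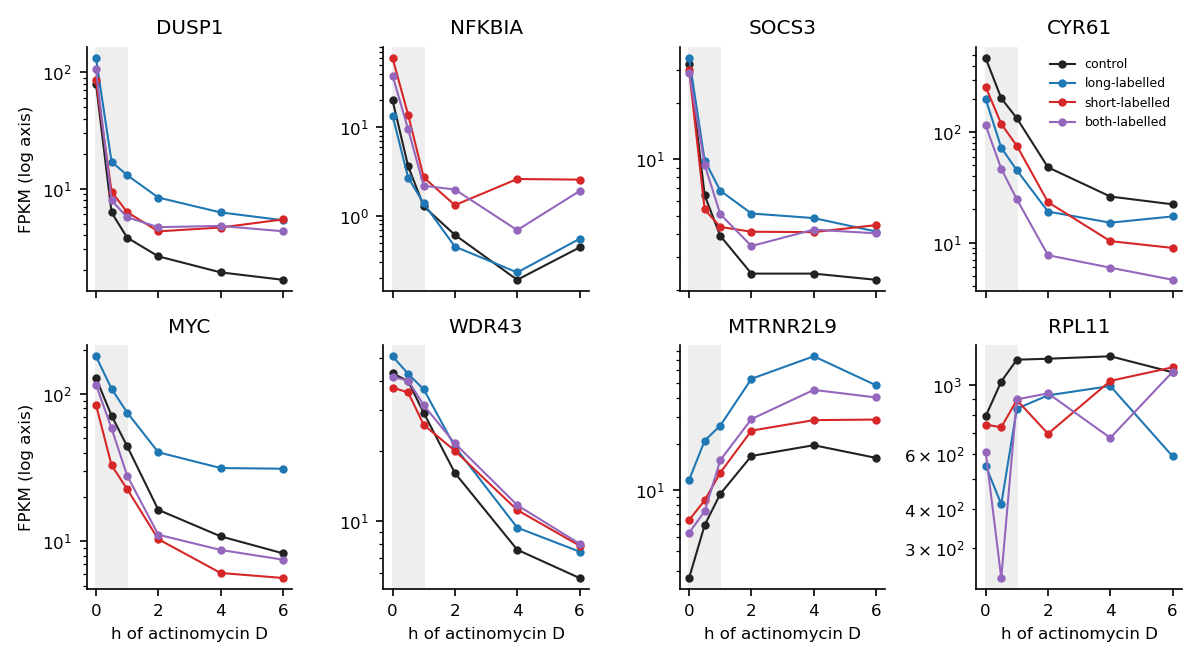
FPKM (log axis) against hours of actinomycin D in the 4 siRNA series for 8 genes, with the first hour shaded. DUSP1, NFKBIA and SOCS3 drop steeply and then level off, WDR43 declines throughout, MTRNR2L9 climbs in the shaded hour, and RPL11 dips at 0.5 h in the long-labelled and both-labelled series.

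The loss of the first hour was then set against the loss per hour between 2 h and 6 h, a window that shares no library with it, in one limma fit to the 16 libraries of 0, 1, 2 and 6 h. Of 8293 genes tested, 165 had a more negative change per hour in the first hour, which is 1.99% of those tested, and 132 a more positive one, which is 1.59%. Of the 152 genes lower at 1 h, 145 were tested here; 93 of them lost more per hour early and none lost less. These genes were selected for their fall between the same 0 h and 1 h libraries, which largely fixes that direction, so the counts are a description. Their median change per hour between 2 h and 6 h was -0.10. DUSP1 had a change per hour of -0.03 in the late window, and the difference between the windows was -3.79 ± 0.22 (adjusted p = 4.6e-06). NFKBIA had a late change of 0.08 per hour and a difference of -3.88 ± 0.26; its 2 h and 6 h values were 1.32 and 2.56 FPKM in the short-labelled series and 0.61 and 0.44 FPKM in the control. NUAK2 and TRIB1 differed by -2.88 and -2.66. Both were low in the late window, with means of 0.80 and 0.67 FPKM at 2 h and 0.59 and 0.45 FPKM at 6 h. At such levels the 0.1 FPKM added before the log damps a late change, and the level filter used 0 h and 1 h only. Of the 165 genes, 51 had a positive late change. ADM was among those that went on falling, by 0.32 per hour, and RHOB and CITED2 by 0.30 per hour each; all 3 still lost more per hour early. WDR43 and RRS1 fell by 0.32 and 0.31 per hour late, close to their first-hour loss, and their differences of -0.08 and -0.07 were not called. In all 165 genes the early change was negative, and in none of the 132 was it. MTRNR2L9 had the largest positive difference, 1.39 ± 0.15, followed by PDDC1 (1.05), the kinase TYK2 (0.84), the deglycosylating enzyme ENGASE (0.70) and the p53-induced death domain gene PIDD (0.68); the last 4 were not called at 1 h against 0 h. None of these 4 passed with 4 h minus 2 h as the late window, and TYK2 and PIDD did not pass without median subtraction. Over all 8293 genes the early and the late change per hour had a Pearson correlation of 0.27 and a Spearman correlation of 0.45, given as a description, since genes are not independent and the values share libraries' scaling.

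**Figure D5:**
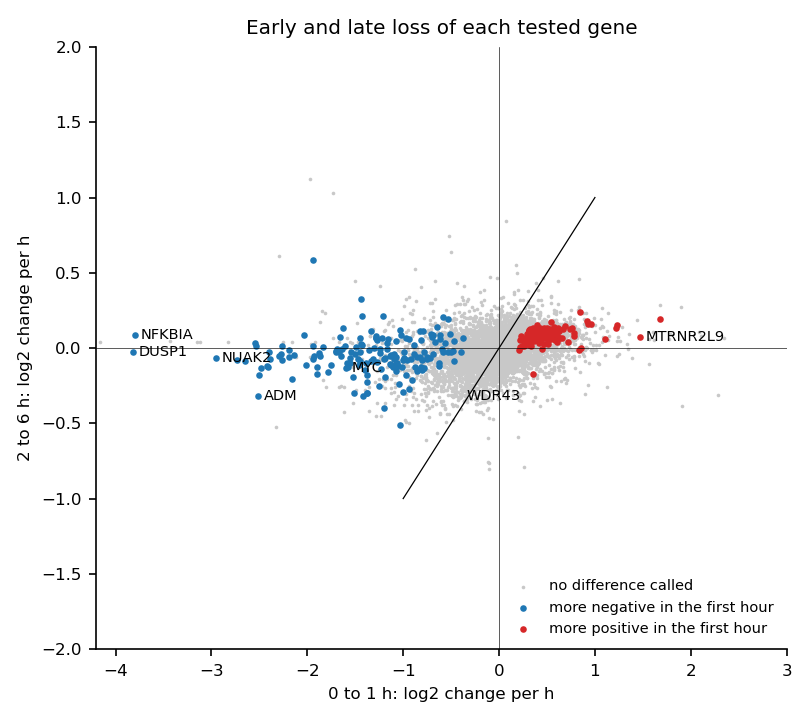
Change per hour between 2 h and 6 h against the change in the first hour (both log2, relative to the library median), one point per gene; the line marks equal rates and 2 genes lie outside the axes. Blue points, more negative in the first hour, spread to -3.8 on the horizontal axis but lie closer to 0 on the vertical one.

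The genes that fell had few exons, as read from GENCODE 29 transcripts for 151 of the 152. They had a median of 3 exons against 9 over all tested genes, and 15.2% were intronless against 2.82%. Over all tested genes, the median change was -0.12 in the 245 with 1 exon, -0.03 in the 942 with 2 or 3 exons, 0.12 in the 3531 with 4 to 9 exons and 0.11 in the 3966 with 10 or more. The heptamer shown above, searched as TATTTAT on the transcript strand, occurred in the 3′ UTR of 46.6% of the lower genes, of 31.3% of all tested genes and of 5.13% of the higher genes. Per kilobase of 3′ UTR the counts were 0.66, 0.32 and 0.12, and median 3′ UTR lengths were 1052.5, 992.5 and 318 bases. The median change of all tested genes was 0.14 with no match, 0.02 with 1, -0.06 with 2 and -0.09 with 3 or more, while the median 3′ UTR length rose from 671.5 to 4148.5 bases across these classes; the parts of length and motif were not told apart. The Pumilio motif TGTANATA was found in 37.2% of the lower genes and 26.4% of all. The genes that rose had a median GC content of 63.1% against 49.1% over all tested genes and 52.6% among the lower genes. GC content can alter library preparation, and its part in the rises was not tested.

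Promoters of strong falls are shown for their matches to TATAAA, the core of the TATA box. In the RefSeq promoter windows (GRCh38.p14, 250 bases before to 50 after the start), TATAAA on either strand was found in 6 of the 13 promoters matched among the 15 largest falls and in 16 of the 122 matched among all lower genes, or 13.1%. It was found in 5.15% of the promoters of tested genes, 9.68% of those of higher genes and 3264 of all 27305 promoters in the table. The proximal 110 bases of 5 of them follow, 5′ to 3′ along the gene, with matches in capitals; TTTATA is TATAAA on the other strand, and CACGTG in the first is an E-box. They lie at chr5:172771196-172771305 (minus strand) for DUSP1, chr14:35404750-35404859 (minus) for NFKBIA, chr1:205321746-205321855 (minus) for NUAK2, chr11:10304963-10305072 (plus) for ADM and chr19:12791376-12791485 (plus) for JUNB.
DUSP1: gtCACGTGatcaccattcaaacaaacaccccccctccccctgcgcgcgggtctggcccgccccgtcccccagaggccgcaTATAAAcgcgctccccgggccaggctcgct
NFKBIA: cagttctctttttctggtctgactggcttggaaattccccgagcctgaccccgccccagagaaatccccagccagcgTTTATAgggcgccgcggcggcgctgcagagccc
NUAK2: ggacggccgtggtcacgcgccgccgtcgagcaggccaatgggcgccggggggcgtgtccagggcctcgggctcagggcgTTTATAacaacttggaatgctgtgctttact
ADM: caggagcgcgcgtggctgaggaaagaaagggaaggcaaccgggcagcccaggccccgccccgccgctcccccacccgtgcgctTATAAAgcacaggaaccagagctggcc
JUNB: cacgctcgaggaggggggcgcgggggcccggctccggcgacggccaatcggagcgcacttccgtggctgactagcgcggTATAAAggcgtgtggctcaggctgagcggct
The E-box CACGTG was in 9.02% of the promoters of lower genes and 10.7% of those tested, the cyclic AMP response element TGACGTCA in 4.10% and 3.65%, and the AP-1 site TGACTCA in 2.46% and 2.80%. A match in a window is a description of the sequence and says nothing of the factor bound there.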

How the data were processed

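Cytoplasmic RNA of U2OS cells was sequenced in 24 libraries, 1 for each siRNA series and time, and the 8 of 0 h and 1 h were compared here. Per the submitters' processing notes, TopHat 1.3.3 and the build hg19 were used. The table deposited by the authors gives FPKM for 37382 transcripts of 22925 gene symbols; which tool computed them is not given in the sources used here. Values were summed per gene symbol, and the 154 transcripts without a symbol were left out. Depth is unknown, so no counting error is given.

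Genes without a dash, averaging at least 1 FPKM in the 8 libraries and with no 0 in these 8 libraries beside at least 1 FPKM at a neighbouring time of the same series (0.5 h for 0 h, 0.5 or 2 h for 1 h) were tested; a 0 in the other libraries did not count. In all, 9682 genes reached the level and 776 were left out for such zeros. Of the 8906 tested, 198 hold a 0 and 18 are listed at 0 in all 4 libraries at 1 h. Values are log2(FPKM + 0.1) minus the library median, so fold changes understate those of low genes. They were fitted in limma 3.58.1 (R 4.3.3) with a mean-variance trend, two-sided, and the fit was tested on simulated data. Same-numbered libraries belong to the same siRNA series; their deviations from the time means correlated at 0.43 to 0.61 over 8906 genes, so the series is a block.

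Named genes are the 15 largest falls and 10 largest rises among calls that averaged at least 5 FPKM and had 1 direction in all series, up to 4 members of each list by smallest p, PAN3 and PAN2, and the 5 largest differences each way between windows; exceptions are named as such, and some genes the rule names are not reported here. The members, lists and tests were chosen with earlier results of these data known. List medians are described beside that of all genes, with no test of the list. Transcript features came from GENCODE 29 and promoters from RefSeq, matched by symbol or accession, for 8684 and 7209 tested genes. Alternatives changed the pseudocount, the level filter, the scaling, the trend, the block, the zeros, the libraries in the fit and the late window, and left out each pair.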

Additional observations from a re-analysis of the deposited data

Results flagged for a closer look

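Among 148 named genes, 9 had a series whose first-hour change stood apart from those of the other 3: its gap to the nearest, divided by the range of the 4, was above Dixon's 95% critical value. Chance gives such a value in about 1 of 20 groups, and 9 in 148 is near that share. In 7 of the 9 the series apart was the control. The control changed more upward in HSP90AA1, an HSP90 chaperone (0.91 on the log2 scale, against 0.31 to 0.37 in the others), in the histone gene HIST1H2BK (0.62, others 0.17 to 0.25), in BST2, which encodes tetherin (0.54, others 0.24 to 0.28), in the proteasome subunit PSMD13 (0.40, others 0.20 to 0.21), in MXD4 (0.35, others 0.20 to 0.22) and in the kinase gene CDK4 (0.28, others 0.13 to 0.15). It changed more downward in PPP1R15B, an eIF2α phosphatase subunit (-0.76, others -0.38 to -0.33). The both-labelled series lost more EDN1 (-2.14, others -1.60 to -1.51), and the long-labelled series lost less ID2, an inhibitor of DNA binding (-0.35, others -0.77 to -0.70). Over all 8906 tested genes, the series apart was the control in 346, the long-labelled in 188, the short-labelled in 137 and the both-labelled in 153. Together these are more than 1 in 20 of the tested genes, and the control has the most. The reason was not tested.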

How the results depend on the processing

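Of the genes called again under an alternative run, none had its direction reversed. Without the short-labelled or the both-labelled pair no gene was called at 1 h, so that check could not be made there. Each setting is given as genes lower and higher at 1 h, against 152 and 42. The counts were 53 and 10 with no filter on low values, 99 and 27 with all zeros kept, and 515 and 1147 or 377 and 1201 in fits of the 0, 0.5 and 1 h or all 24 libraries, where lower genes made up 31.0% and 23.9% of calls against 78.4% as reported. Higher genes numbered 20 without median subtraction (lower share 91.3%), 25 under quantile normalisation (86.6%) and 17 without the trend (89.2%). Without the replicate block, 27 genes were lower and 0 higher (662 at an unadjusted p under 0.05); the pairing is by siRNA series. Leaving out a pair gave 0 to 18 lower genes and 0 higher ones (1980 to 2270 at an unadjusted p under 0.05).

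Between windows, against 165 and 132, there were 34 and 0 without the replicate block, and leaving out a pair gave 52 to 86 and 10 to 20. Genes more positive early numbered 289 and 70 at a mean of at least 0.1 or 5 FPKM, 2738 with no filter, 258 with all zeros kept, 51 without median subtraction, 76 without the trend, 73 with 4 h minus 2 h as the late window and 390 in all 24 libraries. The cause of these moves was not tested. The depth is unknown, so the counting error of low genes is not known, and all changes are relative to the library median.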
